A study of Arabidopsis thaliana with 12 samples.

Results

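The 45 genes examined here are listed chloroplast-encoded genes of the photosynthetic apparatus of *Arabidopsis thaliana*, and *ndhB* is not among them. They were taken from the count table by a list of gene identifiers: 15 genes of photosystem II (PSII), 5 of photosystem I (PSI), 6 of the cytochrome b6f complex, 6 of the ATP synthase, 10 of the NADH dehydrogenase-like (NDH) complex, *rbcL*, and the 2 PSI assembly genes *ycf3* and *ycf4*. The table holds 37813 genes, of which 20101 protein-coding genes were tested, 73 of them chloroplast-encoded. All 45 genes passed the filter (5 or more reads in 3 or more of the 12 samples), but 7 of them (*psbZ*, *psbF*, *psaI*, *petL*, *petG*, *ndhE* and *ndhI*) passed only through the UV-C treated samples.

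RNA was sequenced from whole rosettes of *jac1*, a mutant of a gene needed for chloroplast movement, and of its wild type, both in the Col-0 gl1 background, at 4 weeks of age under an 8 h photoperiod. Rosettes were exposed to 100 mJ cm-2 of UV-C and collected 30 min later (UV-C treated) or left unexposed (non-treated, NT), with 3 biological replicates of at least 4 pooled rosettes in each of the 4 groups. The nature of the *jac1* lesion is not given in the labels, and the count of *JAC1* reads does not identify it: *JAC1* averaged 173 CPM in UV-C treated *jac1* against 143 CPM in UV-C treated wild type, and in non-treated plants 151 CPM in *jac1* against 93.7 CPM in the wild type. CPM are read counts set to a common library size with trimmed mean of M values (TMM) factors.

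The libraries held 20897905 to 27194762 counts in UV-C treated samples and 33999174 to 40445085 in non-treated samples. The mesophyll markers *CA1*, *RBCS1A* and *LHCB3* were high in every group, with means of 2633 to 4364, 15341 to 18696 and 905 to 13597 CPM, whereas the root genes *RHD6* and *COBL9* were at 0 to 0.0446 CPM. *LHCB3* was higher in UV-C treated than in non-treated plants, by log2 FCs of 2.21 in *jac1* and 2.59 in the wild type, whereas *CA1* was lower, at -0.56 and -0.67.

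The chloroplast genome encodes core subunits of both photosystems, of the cytochrome b6f complex that links them, of the ATP synthase and of the NDH complex, together with the large subunit of Rubisco. Most of these genes lie in operons that are transcribed as polycistronic RNAs and then processed, and the remaining subunits of the same complexes are made from nuclear genes. Unlike nuclear messengers, mature chloroplast RNAs carry no stable poly-A tail. In chloroplasts a short A-rich tail marks RNA for degradation. Poly-T beads were used to select RNA for the libraries, so the reads of these genes come from the part of chloroplast RNA that passed this step.

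After UV-C, reads of all 45 genes were more abundant, in both genotypes. In *jac1* all 45 were called higher (adjusted p below 0.01 and a log2 FC above 1 by the edgeR quasi-likelihood test, adjusted by Benjamini and Hochberg's method over all tested genes), whereas 8.96% of all genes tested were called higher. In the wild type all 45 were called higher as well, beside 7.01% of all genes. The median log2 FC was 6.85 in *jac1* and 6.67 in the wild type, against 0.05 and 0.00 over all genes tested. For the 7 genes that passed the filter only through the UV-C treated samples, a higher level after UV-C was part of how they entered the test. The 38 genes that passed it in non-treated samples too were all called higher in both genotypes. Their medians were 6.83 in *jac1* and 6.66 in the wild type. With genes that had no more than 3 reads in any sample of a non-treated group set to the bound that a floor of 3 reads per library gives (6 in *jac1* and 4 in the wild type), the medians of all 45 were 6.48 in *jac1* and 6.66 in the wild type. The highest adjusted p among the 45 genes was 0.000433 in *jac1*, for *psbM*, and 7.04e-05 in the wild type, for *petL*, 1 of those 7 genes. For none of the 38 genes did UV-C treated and non-treated samples overlap in either genotype. Non-overlap in this direction was found for 34.4% of all genes in *jac1* and 28.3% in the wild type. The other 7 genes did not overlap either, but the filter favoured that outcome for them.

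**Figure D1:**
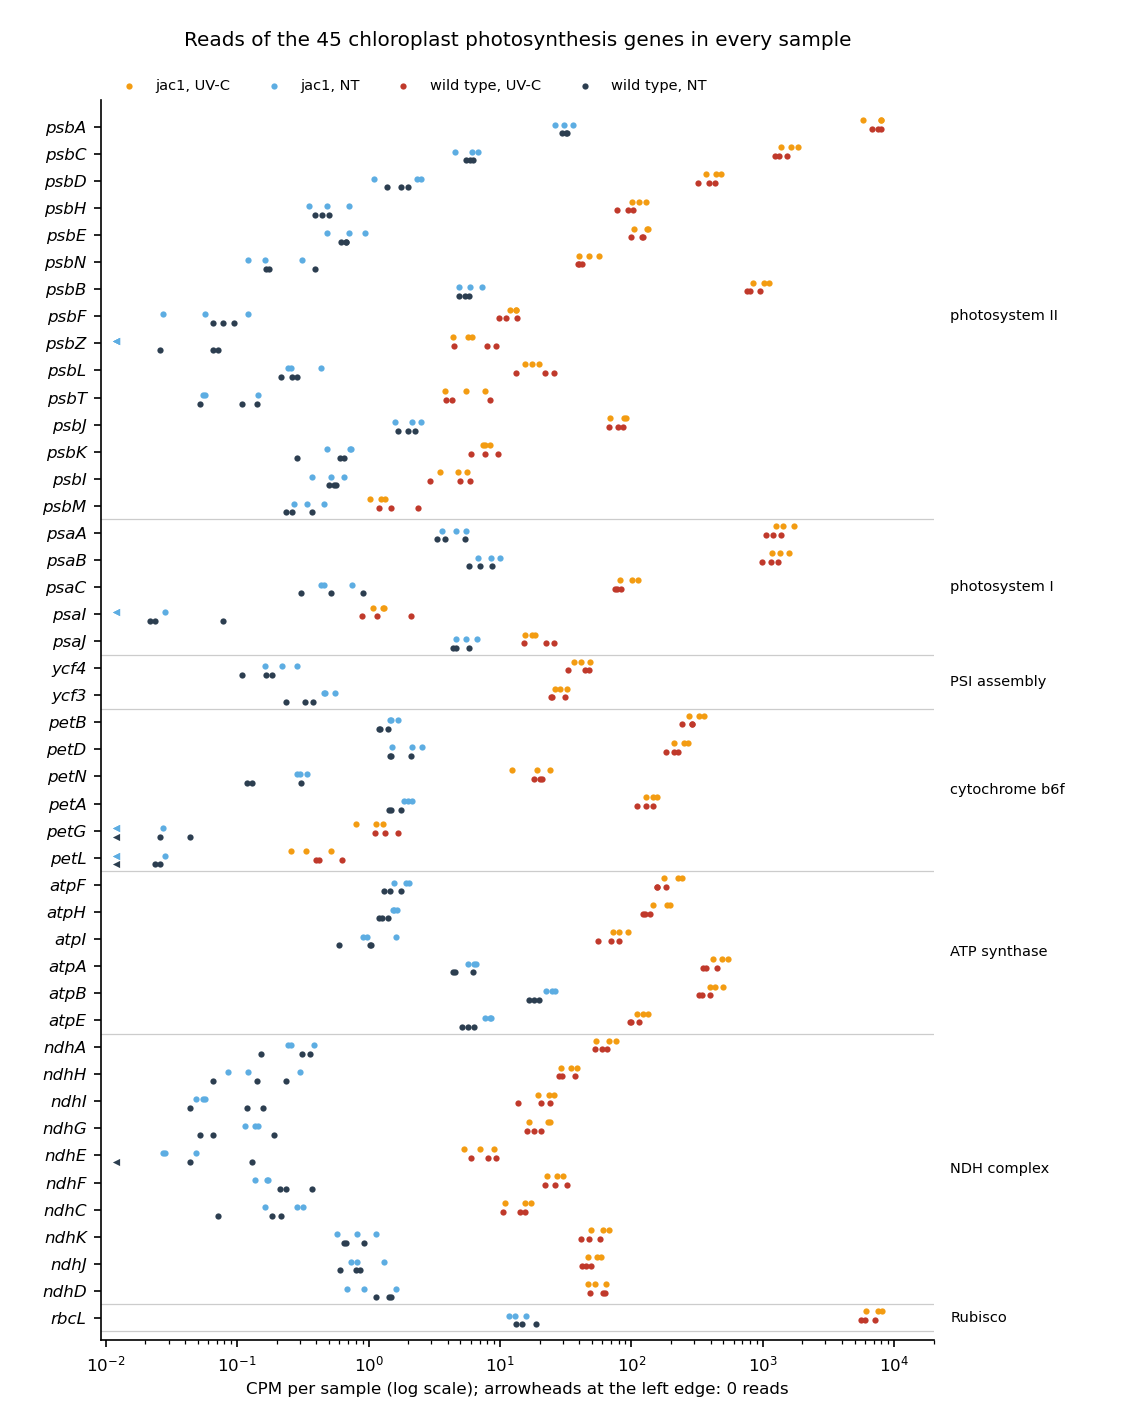
CPM of the 45 genes in each of the 12 samples, on a log scale, grouped by complex and ordered within it by the log2 FC in the wild type; each point is 1 sample. In every gene the UV-C treated samples lie to the right of the non-treated samples of their genotype, and the gap is narrowest for *psaJ* (log2 FC 2.09) and *psbM* (2.52).

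Together the 45 genes held 2.24, 1.90 and 1.78% of all counts in UV-C treated wild type, against 0.0130, 0.0132 and 0.0151% in non-treated wild type, a ratio of means of 143. In *jac1* they held 1.89, 2.09 and 1.56% in UV-C treated plants, against 0.0161, 0.0139 and 0.0127% in non-treated plants, a ratio of 130. The groups did not overlap (two-sided exact permutation test, p = 0.1 in each genotype, the smallest that 3 against 3 samples can give). Reads that come from other RNA without a stable poly-A tail moved in the same libraries: the share of the nuclear 18S rRNA gene AT3G41768 was 270 times as high in UV-C treated as in non-treated *jac1* and 247 times as high in the wild type, and that of the mitochondrion-encoded genes 86.9 times in *jac1* and 69.4 times in the wild type. More chloroplast RNA per cell and more RNA without poly-A tails carried into the UV-C libraries cannot be told apart here. Nor can a change in the number of cells of a type be told apart from a change in RNA per cell in whole rosettes. Markers of other cell types moved as well: the 2 epidermal markers *ATML1* and *FDH* summed to 195 to 226 CPM in UV-C treated and 456 to 535 CPM in non-treated *jac1*, and to 182 to 227 CPM in UV-C treated and 368 to 395 CPM in non-treated wild type. The 3 guard cell markers *KAT1*, *MYB60* and *FAMA* summed to 26.5 to 31.2 CPM in UV-C treated and 55.4 to 64.2 CPM in non-treated *jac1*, and to 29.9 to 31.0 CPM in UV-C treated and 50.2 to 56.9 CPM in non-treated wild type. Each of these 5 was lower after UV-C in both genotypes, with log2 FCs of -1.43 to -0.73 (adjusted p of at most 0.000331, edgeR), and their part in the increase was not tested.

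The increase was unequal among the genes. It ranged in the wild type from a log2 FC of 2.09 for *psaJ* to 8.65 for *rbcL*. The genes fell in nearly the same order in *jac1*, with a Spearman correlation of 0.91 between the log2 FCs of both genotypes over the 45 genes, which share libraries and operons and are not independent. Median log2 FCs by complex in the wild type were 7.24 for the 2 PSI assembly genes, 7.12 for PSII, 7.10 for PSI, 6.81 for NDH, 6.52 for cytochrome b6f and 6.27 for the ATP synthase.

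**Figure D2:**
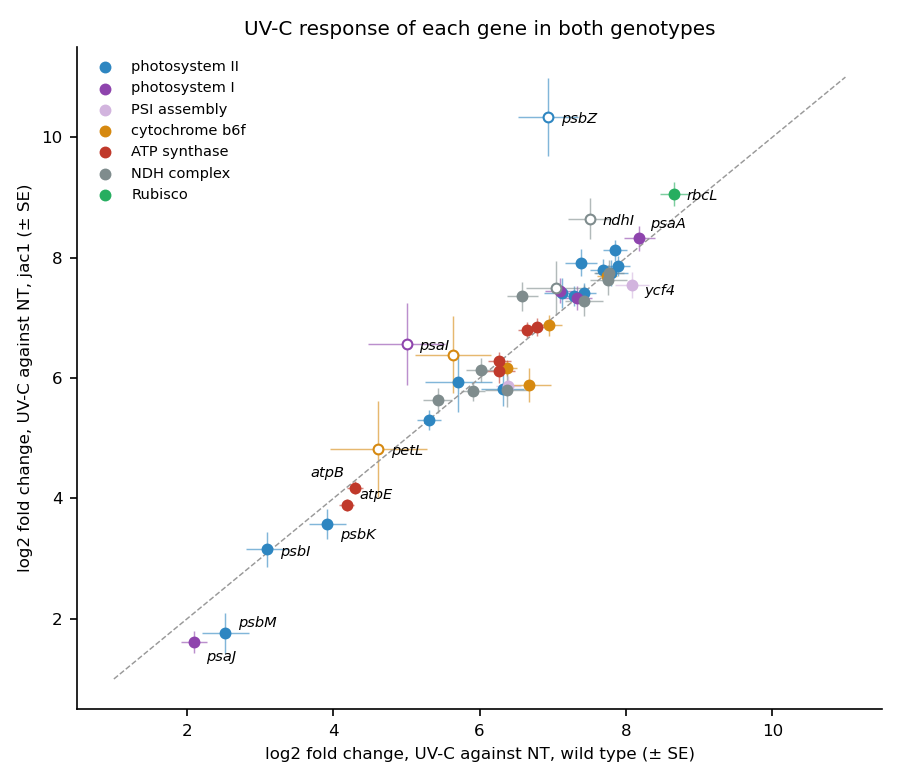
Log2 FC of UV-C treated against non-treated plants for each of the 45 genes, in the wild type (x axis) and in *jac1* (y axis), with standard errors; the dashed line marks equal values, and open symbols mark the 6 genes with no more than 3 reads in any sample of at least 1 non-treated group. Most genes lie along the line between *psaJ* at the lower left (2.09 and 1.61) and *rbcL* at the upper right (8.65 and 9.06), and *psbZ* stands off it, with 0 reads in non-treated *jac1*.

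In PSII, *psbA* (ATCG00020), which encodes the reaction centre protein D1, was the most abundant gene per length. It had 7963, 7528 and 6823 CPM in UV-C treated wild type, against 29.4, 32.3 and 31.9 CPM in non-treated wild type. In *jac1* it had 7905, 7875 and 5787 CPM after UV-C, against 36, 30.4 and 26.3 CPM in *jac1* under NT. The log2 FC was 7.86 ± 0.16 (SE) in *jac1* and 7.90 ± 0.16 in the wild type, there the largest in this complex. *psbC* and *psbB*, which encode the inner antenna proteins CP43 and CP47, followed with log2 FCs of 7.85 and 7.29 in the wild type, and *psbD*, which encodes the reaction centre protein D2, with 7.80. *psbD* and *psbC* share 53 bases, and reads lying in more than 1 gene were not counted, so both counts leave out part of their reads.

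The small PSII subunits differed more widely. *psbM* (ATCG00220), a small intrinsic subunit at the dimer interface, had 2.38, 1.2 and 1.48 CPM in UV-C treated wild type, against 0.369, 0.237 and 0.261 CPM in non-treated wild type. Its log2 FC was 2.52 ± 0.32 in the wild type, the smallest in PSII. The *jac1* values were 1.34, 1.03 and 1.23 CPM after UV-C, against 0.339, 0.273 and 0.455 CPM in *jac1* under NT, with a log2 FC of 1.76 ± 0.33. *psbI* and *psbK*, neighbours in 1 operon that encode small core subunits, also rose less than most, with log2 FCs of 3.10 and 3.91 in the wild type. At the other end, *psbH*, a small phosphoprotein, and *psbE* and *psbF*, the subunits of cytochrome b559, rose by log2 FCs of 7.68, 7.43 and 7.12. The value of *psbF* is the least certain, as it had 3, 4 and 3 reads in non-treated wild type and passed the filter only through the UV-C treated samples. *psbZ*, a small subunit near the antenna, was represented by 0 reads in all 3 non-treated *jac1* samples and by 1 to 3 reads in each non-treated wild-type sample. Against a floor of 3 reads per library it was at least 67.3-fold higher in UV-C treated than in non-treated *jac1* and at least 101-fold higher in the wild type. Genes as short as *psbM*, *psbI*, *psbT* and *psbL* (102 to 117 bases) offer few positions for a counted read, and *psbN* lies on the opposite strand between *psbT* and *psbH*. Since counting did not use strand, reads antisense to it cannot be told apart from its own.

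In PSI, *psaA* and *psaB* encode the pair of large reaction centre proteins. *psaA* (ATCG00350) had 1375, 1199 and 1060 CPM in UV-C treated wild type, against 3.84, 3.29 and 5.45 CPM in non-treated wild type, a log2 FC of 8.18 ± 0.21, the largest in PSI. Values in the mutant were 1423, 1728 and 1270 CPM after UV-C, against 5.49, 4.66 and 3.61 CPM in *jac1* under NT, a log2 FC of 8.32 ± 0.21. *psaB*, directly downstream, had 1315, 1157 and 982 CPM in UV-C treated wild type, against 5.82, 7.08 and 8.63 CPM in non-treated wild type, a log2 FC of 7.33 ± 0.20. *psaJ* (ATCG00630), a small membrane subunit, behaved otherwise. It had 22.2, 25.7 and 15.3 CPM in UV-C treated wild type, against 4.63, 5.85 and 4.41 CPM in non-treated wild type, and its log2 FC of 2.09 ± 0.18 was the smallest of all 45 genes. The mutant had 18.5, 17.6 and 15.5 CPM after UV-C, against 6.63, 4.63 and 5.54 CPM in *jac1* under NT, a log2 FC of 1.61 ± 0.18. Per kb of gene length, *psaJ* was at 156 ± 39.2 CPM per kb in UV-C treated wild type (SD, n = 3), beside 7004 ± 542 for *psbA*, whereas in non-treated wild type it was the most abundant of the 45 genes, at 36.7 ± 5.74 CPM per kb. *psaC*, which carries the terminal iron-sulphur clusters, had a log2 FC of 7.10 in the wild type. *psaI*, another small subunit, had at most 3 reads in any non-treated sample and was at least 15.4-fold higher after UV-C in *jac1* and at least 19.4-fold higher in the wild type.

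The PSI assembly factors *ycf4* (ATCG00520) and *ycf3* both rose. *ycf4* had 47.3, 44.7 and 33 CPM in UV-C treated wild type, against 0.109, 0.166 and 0.182 CPM in non-treated wild type. Its log2 FC was 7.55 ± 0.22 in *jac1* and 8.08 ± 0.23 in the wild type, where it was among the largest. *ycf3*, which contains introns, had 31.1, 24.3 and 25.1 CPM in UV-C treated wild type, against 0.326, 0.379 and 0.235 CPM in non-treated wild type, a log2 FC of 6.39 ± 0.17. In *jac1* it had 28.8, 32.6 and 26.2 CPM after UV-C, against 0.557, 0.463 and 0.455 CPM in *jac1* under NT, a log2 FC of 5.87 ± 0.16.

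In the cytochrome b6f complex, *petB* (ATCG00720), which encodes cytochrome b6, had 287, 290.2 and 241 CPM in UV-C treated wild type, against 1.19, 1.4 and 1.23 CPM in non-treated wild type, a log2 FC of 7.74 ± 0.14, the largest in this complex. *petD*, which encodes subunit IV and is the last gene of the same operon, had 226, 211 and 182 CPM in UV-C treated wild type, against 1.48, 1.44 and 2.11 CPM in non-treated wild type, a log2 FC of 6.95 ± 0.17. It was the most abundant gene of the complex per length, although *petB*, at 421 ± 42.7 CPM per kb in UV-C treated wild type, did not differ from it (428 ± 45.7) by more than the SD. *petA*, which encodes cytochrome f, rose less, with a log2 FC of 6.17 in *jac1* and 6.37 in the wild type. The small subunit gene *petL* had 0.63, 0.4 and 0.423 CPM in UV-C treated wild type, against 0, 0.0237 and 0.0261 CPM in non-treated wild type. With at most 1 read in any non-treated sample its fold is known only as a bound, at least 4.63-fold in *jac1* and at least 6.78-fold in the wild type. *petG*, another small subunit, was at least 13.5-fold higher in *jac1* and at least 19.2-fold higher in the wild type.

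The 6 ATP synthase genes differed by operon. *atpI*, *atpH*, *atpF* and *atpA* encode 3 subunits of the membrane part and the alpha subunit of the catalytic part, and had log2 FCs of 6.27, 6.65, 6.79 and 6.27 in the wild type. *atpB* and *atpE*, which encode the beta and epsilon subunits and form an operon of their own, had log2 FCs of 4.30 and 4.18. *atpF* (ATCG00130) had 185, 157 and 157 CPM in UV-C treated wild type, against 1.3, 1.47 and 1.77 CPM in non-treated wild type, a log2 FC of 6.79 ± 0.16, the largest of the 6. *atpE* (ATCG00470) had 115, 100.0 and 97.1 CPM in UV-C treated wild type, against 5.17, 5.73 and 6.31 CPM in non-treated wild type, a log2 FC of 4.18 ± 0.10, the smallest of the 6. *atpB* had 399, 329 and 343 CPM in UV-C treated wild type, against 18.2, 16.6 and 19.7 CPM in non-treated wild type. The lesser increase of *atpB* and *atpE* went with a higher level in non-treated plants. In UV-C treated wild type the levels of *atpB* (239 ± 24.8 CPM per kb), *atpE* (261 ± 23.8) and *atpA* (255 ± 34.1) lay within their SDs of each other, whereas in non-treated wild type *atpB* and *atpE*, at 12.1 ± 1.04 and 14.4 ± 1.43 CPM per kb, were above *atpA* (3.31 ± 0.662). *atpH*, the ring-forming c subunit, was the most abundant of the 6 per length after UV-C, at 528 ± 35.4 CPM per kb.

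The 10 NDH genes of the list encode subunits of the complex that passes electrons from ferredoxin back to plastoquinone. They were among the least abundant of the 45 genes, with 12 to 95.1 CPM per kb in UV-C treated wild type. *ndhJ* had the highest level per length and had 48.9, 45.3 and 41.8 CPM in UV-C treated wild type, against 0.608, 0.805 and 0.86 CPM in non-treated wild type, a log2 FC of 5.91 ± 0.16. *ndhA* had 65.4, 59.4 and 53.1 CPM in UV-C treated wild type, against 0.152, 0.355 and 0.313 CPM in non-treated wild type, a log2 FC of 7.76 ± 0.21, the largest in this complex. *ndhD* (ATCG01050) had 61, 63.3 and 48.4 CPM in UV-C treated wild type, against 1.13, 1.42 and 1.49 CPM in non-treated wild type, a log2 FC of 5.43 ± 0.20, the smallest in this complex. The *jac1* values were 53, 64.3 and 46.8 CPM after UV-C, against 1.62, 0.927 and 0.682 CPM in *jac1* under NT, a log2 FC of 5.63 ± 0.21. *ndhE* and *ndhI* had at most 3 reads in each non-treated *jac1* sample and were at least 89.1-fold and at least 287-fold higher in UV-C treated than in non-treated *jac1*.

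*rbcL* (ATCG00490), at chloroplast positions 54958 to 56397 on the plus strand, encodes the large subunit of Rubisco. It had 7120, 5595 and 5995 CPM in UV-C treated wild type, against 13.3, 14.6 and 18.7 CPM in non-treated wild type. Values in the mutant were 7587, 8027 and 6096 CPM after UV-C, against 15.8, 13.1 and 11.8 CPM in *jac1* under NT. Its log2 FC was 9.06 ± 0.19 in *jac1* and 8.65 ± 0.19 in the wild type, there the largest of the 45 genes. Per kb, *psbA* alone (7004 ± 542 CPM per kb) was above *rbcL* (4331 ± 549) in UV-C treated wild type, whereas in non-treated wild type *rbcL*, at 10.8 ± 1.96 CPM per kb, was below *psaJ*, *psbA*, *psbJ*, *atpE* and *atpB*.

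The unequal increases changed how the reads of the 45 genes were divided among complexes, a measure that does not depend on how libraries were scaled to each other. The ATP synthase took 5.76, 5.54 and 5.75% of these reads in UV-C treated wild type, against 27.3, 25 and 26.8% in non-treated wild type. In *jac1* it took 6.23, 6.5 and 6.67% in UV-C treated plants, against 28, 32.9 and 35% in non-treated plants. The smaller share lay mainly with *atpB*, which held 1.67 ± 0.0786% in UV-C treated and 14.7 ± 1.08% in non-treated wild type (SD, n = 3 each). *rbcL* took 30.0, 27 and 30.5% in UV-C treated wild type, against 11.6, 12.2 and 13.7% in non-treated wild type. *psbA* took 33.6, 36.4 and 34.7% in UV-C treated wild type, against 25.6, 26.9 and 23.5% in non-treated wild type. The larger shares of UV-C treated plants thus lay with *rbcL* and *psbA*, and this held in *jac1*, where *rbcL* had 30.8 ± 0.208% against 9.86 ± 0.425% and *psbA* 30.5 ± 1.38% against 22.5 ± 1.1%. PSII, *psbA* included, had a higher share in UV-C treated plants of both genotypes, and PSI, cytochrome b6f, the ATP synthase and NDH a lower one, in each case without overlap. Shares sum to 100%, so a rise of *rbcL* and *psbA* lowers the others: with both left out, the PSI share was higher by 10.1 percentage points in UV-C treated than in non-treated wild type, and the ATP synthase was the 1 complex that was lower without overlap in both genotypes. NDH then had 3.94 ± 0.0882% in UV-C treated against 4.27 ± 0.643% in non-treated *jac1*, with overlap, and 4.27 ± 0.157% in UV-C treated against 5.17 ± 0.569% in non-treated wild type, without it.

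**Figure D3:**
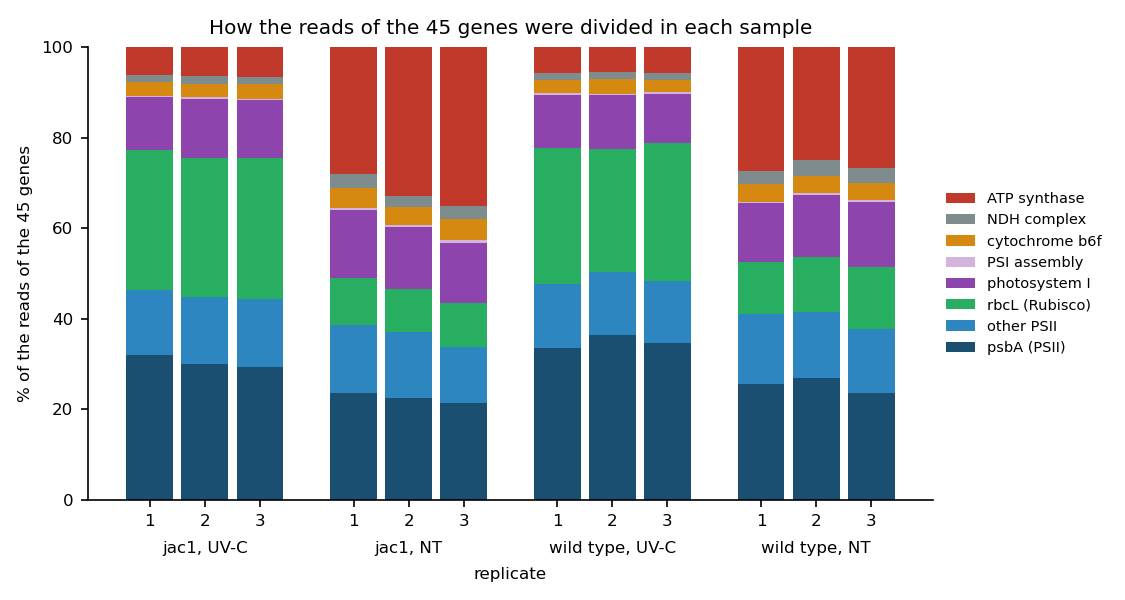
Share of the reads of the 45 genes that fell to each complex, as stacked bars that sum to 100%, for each of the 12 samples; *psbA* is drawn apart from the other PSII genes. The ATP synthase segment at the top spans 5.54 to 6.67% in the 6 UV-C treated samples and 25.0 to 35.0% in the 6 non-treated samples.

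Neighbours in an operon can come from 1 primary transcript, and the ratio of the last gene to the first shows how reads were spread along it. Over 11 operons this log2 ratio was compared between UV-C treated and non-treated samples, with a pseudocount of 0.5 reads and a two-sided exact permutation test within genotypes, whose smallest possible p is 0.005, and adjusted over the 11 operons. In 3 of them an end gene (*petL*, *psaI* or *psbZ*) passed the filter on low counts only through the UV-C treated samples, so that the ratio rests on the pseudocount in non-treated samples, and these 3 are given as values with no test. Among the other 8 operons the ratio was lower in UV-C treated samples in 6 at an adjusted p below 0.05, and in none was it higher. Leaving out replicate 1 or 3 of UV-C treated wild type left 3 of the 8 below 0.05, those of *ndhD*, *psbJ* and *psaB*. Without any 1 sample of UV-C treated *jac1*, *petD* to *psbB* had an adjusted p of 0.055. *atpE* to *atpB* missed 0.05 without any 1 of these, replicate 2 or 3 of non-treated wild type or replicate 1 of non-treated *jac1* (0.055 to 0.0943). *psbI* to *psbK* missed it without replicate 2 of non-treated wild type or replicate 1 of non-treated *jac1* (0.055, exact permutation tests).

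The largest differences among the 8 were those of *ndhD* to *ndhH* and *psbJ* to *psbE*. The *psbJ* to *psbE* ratio was -0.50, -0.59 and -0.55 in UV-C treated wild type, against 1.3, 1.85 and 1.53 in non-treated wild type, and -0.53, -0.59 and -0.62 in UV-C treated *jac1*, against 1.40, 1.57 and 1.69 in non-treated *jac1*. *psbJ*, a small subunit, thus had fewer reads than *psbE* in every UV-C treated sample and more in every non-treated sample. The difference was -2.12 on the log2 scale (p = 0.005, adjusted p = 0.011, exact permutation test). *psbE* is the longer gene, at 252 against 123 bases. Per kb, *psbJ* was the more abundant in UV-C treated wild type too, at 633 ± 75.2 against 451 ± 48.3 CPM per kb. The ratio of *ndhD* to *ndhH* was 0.71, 1.09 and 0.79 in UV-C treated wild type, against 3.91, 3.22 and 2.60 in non-treated wild type. In *jac1* it was 0.62, 0.75 and 0.69 in UV-C treated plants, against 3.62, 1.58 and 2.81 in non-treated plants. The difference was -2.18 (adjusted p = 0.011, exact permutation test). *ndhH* was at only 0.125 CPM per kb in non-treated wild type, so the size of this difference rests on few reads and is uncertain.

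The *psaB* to *psaA* ratio was -0.06, -0.05 and -0.11 in UV-C treated wild type, against 0.60, 1.10 and 0.66 in non-treated wild type. In *jac1* it was -0.07, -0.12 and -0.12 in UV-C treated plants, against 0.86, 0.88 and 0.91 in non-treated plants. Both genes, of nearly equal length, were thus read about equally after UV-C, while *psaB* exceeded *psaA* in every non-treated sample (difference -0.92, adjusted p = 0.011, exact permutation test). The *petD* to *psbB* ratio differed by -0.40 (adjusted p = 0.011), *psbI* to *psbK* by -0.68 (adjusted p = 0.0183) and *atpE* to *atpB* by -0.20 (adjusted p = 0.0393, exact permutation tests), and the last 2 overlapped between UV-C treated and non-treated samples in the wild type.

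No such difference was found in the other 2 of the 8. The *atpA* to *atpI* ratio was 2.48, 2.38 and 2.66 in UV-C treated wild type, against 2.08, 2.92 and 2.56 in non-treated wild type, a difference over both genotypes of 0.04 (p = 0.8, exact permutation test). *ndhJ* to *ndhC* differed by -0.24 (adjusted p = 0.66, exact permutation test). Of the 3 operons that rest on the pseudocount, *psaJ* to *petL* differed by -2.48, or -1.85 with a pseudocount of 1, *psbZ* to *psbD* by -0.09, or -0.71, and *petA* to *psaI* by 0.84, or 1.37.

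**Figure D4:**
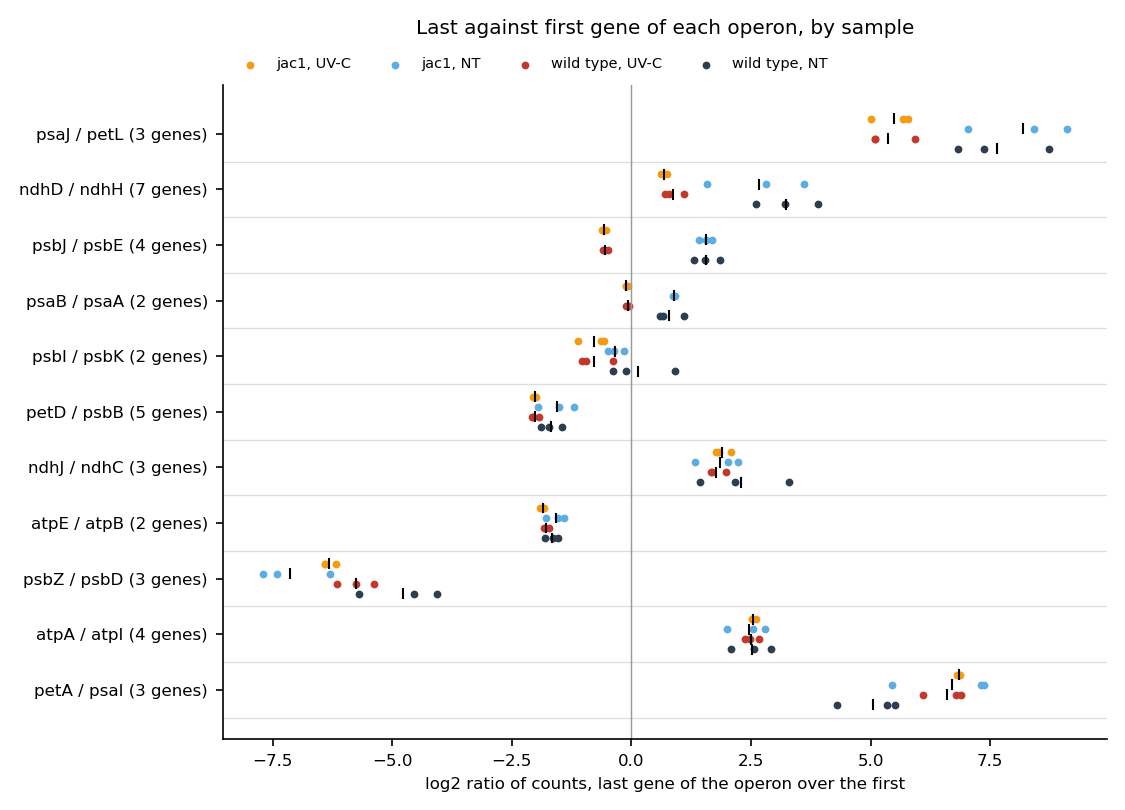
Log2 ratio of read counts of the last gene of an operon to those of its first gene, for 11 operons ordered by the difference between UV-C treated and non-treated samples; points are the 12 samples and short black bars the mean of each group. In the *psbJ* to *psbE* row the 6 UV-C treated samples lie between -0.62 and -0.50 and the 6 non-treated samples between 1.3 and 1.85. The rows with *petL*, *psbZ* and *psaI* rest on the pseudocount in non-treated samples.

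Properties of the genes that were not used to choose them were compared with the increase, as a description over 45 genes that share libraries and transcripts. The log2 FC in the wild type had a Spearman correlation of 0.47 with gene length. Genes whose sequence together with the 200 bases downstream was richer in A tended to rise less in the wild type (-0.40). In *jac1* this correlation was weaker (-0.24), and for the gene alone it was weak in the wild type (-0.18). The 200 bases weigh more in a short gene, so the correlation with downstream bases is not separate from that with gene length. As poly-T beads bind runs of A, the longest such run was also read from the chloroplast sequence, and its correlation with the log2 FC was weak, at 0.06 for the gene alone and -0.23 with the 200 bases downstream. The motif AAAAAA was found on the sense strand of the gene or of the 200 bases after it in 35 of the 45 genes (77.8%) and in 26 of the 28 other chloroplast-encoded genes (92.9%), and on either strand in 45 and 27. The 35 genes had a median log2 FC of 6.58 and the 10 without it 6.73. The most A-rich windows of 20 bases are given below for the 4 genes with the smallest increase, then for the 4 with the largest, from the TAIR10 chloroplast sequence, 5′ to 3′ on the gene's strand, with the longest run of A in capitals. They show that such stretches occur in both groups of genes.
*psaJ* (chrC:67215-67234, + strand): tagtaatagaacgAAAAAAA
*psbM* (chrC:28673-28692, - strand): tactatcAAAAAAAAAAAAA
*psbI* (chrC:7681-7700, + strand): acgtgaagaatAAAAAAgaa
*psbK* (chrC:7251-7270, + strand): aattcaaaagatccAAAAAA
*psbA* (chrC:204-223, - strand): aataataataaataatAAAA
*ycf4* (chrC:60354-60373, + strand): aggaagAAAAAAcgaaagaa
*psaA* (chrC:40161-40180, - strand): ttaataccagatAAAgcaaa
*rbcL* (chrC:56555-56574, + strand): aatAAAAAAAAgaagattaa
The 4 genes with the smallest increase have runs of 6 to 13 A in these windows, all of them after the stop codon, at least in part. Among the 4 with the largest, *rbcL* has a run of 8, *ycf4* 6, *psbA* 4 and *psaA* 3. The run of 13 after *psbM* is matched by a gene of much larger increase, *ndhC* (log2 FC 6.37), whose longest run is also 13.

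Between genotypes the differences were far smaller. None of the 45 genes was called in *jac1* against the wild type in UV-C treated plants, where 4.21% of all genes tested were called, or in non-treated plants, where 1.95% were. At an unadjusted p below 0.05 there were 9 of the 45 genes in UV-C treated plants, beside 49.9% of all genes, and 4 in non-treated plants, beside 30.0%. DESeq2's Wald test and edgeR's likelihood ratio test called none either. The median log2 FC was 0.15 in UV-C treated plants, with 33 of 45 genes above 0, and 0.18 in non-treated plants, with 29 above 0. In UV-C treated plants these values depend on how the libraries were scaled. The TMM factors were 0.825 to 0.856 in UV-C treated *jac1* against 0.995 to 1.03 in UV-C treated wild type. Scaled by library size alone, the median of all genes moved by -0.26 and 9 of the 45 genes were above 0, 36 below, while 33 still lay above the median of all genes. The share of all counts taken by the 45 genes was not distinguishable between genotypes: 1.85 ± 0.264% in UV-C treated *jac1* against 1.97 ± 0.239% in UV-C treated wild type, and 0.0142 ± 0.00172% in non-treated *jac1* against 0.0138 ± 0.00116% in non-treated wild type (SD, n = 3 each; exact permutation test, p = 0.5 and 0.7).

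All 6 ATP synthase genes were above 0 in both comparisons of *jac1* with the wild type, with medians of 0.31 in UV-C treated and 0.36 in non-treated plants. In non-treated plants this was not particular to them. The 28 other chloroplast-encoded protein-coding genes had medians of 0.12 in UV-C treated and 0.35 in non-treated plants, with 21 above 0 in each. Their share of all counts in non-treated *jac1* was 1.23 times that in non-treated wild type, without overlap. *atpE* had 8.45, 7.63 and 8.53 CPM in non-treated *jac1*, against 5.17, 5.73 and 6.31 CPM in non-treated wild type, without overlap. Of the 45 genes, 6 were above and 2 below without overlap in non-treated *jac1*, beside 16.5% and 19.4% of all genes. For *atpE* the log2 FC of 0.52 ± 0.10 (adjusted p = 0.00353, edgeR) was below the limit of 1 set for a call. *atpB* had 22.4, 26.2 and 24.7 CPM in non-treated *jac1*, against 18.2, 16.6 and 19.7 CPM in non-treated wild type, a log2 FC of 0.43 ± 0.10 (adjusted p = 0.0108), which had an adjusted p of 0.0512 without replicate 2 of non-treated wild type and of 0.0555 without replicate 2 of non-treated *jac1*. These were the 2 of 45 genes with an adjusted p below 0.05 in non-treated plants, beside 9.08% of all genes that were higher by this rule and 8.58% that were lower. In UV-C treated plants 5 genes passed it, *atpH*, *atpF*, *atpB*, *psbH* and *atpE*, all higher in *jac1*, beside 23.0% of all genes higher and 19.3% lower. *atpH* had 185, 197 and 145 CPM in UV-C treated *jac1*, against 139.7, 123 and 127 CPM in UV-C treated wild type, a log2 FC of 0.44 ± 0.09 (adjusted p = 0.00186), and was the 1 gene whose groups did not overlap, beside 26.8% of all genes higher without overlap. *atpB*, *atpF*, *psbH* and *atpE* each missed this threshold without replicate 2 or 3 of UV-C treated wild type or replicate 2 of UV-C treated *jac1*, with adjusted p of 0.0527 to 0.183, and *atpF*, *psbH* and *atpE* also without replicate 1 of UV-C treated *jac1*. *atpE* missed it too without replicate 1 or 3 of non-treated *jac1* or replicate 1 or 2 of non-treated wild type (0.0527 to 0.0583), under DESeq2's Wald test (0.0757) and size factors (0.0724), and in a fit of the compared samples alone (0.0674). Scaled by library size alone, none of the 5 passed, and *atpE* was at -0.035 and *atpH* was at 0.17 (adjusted p = 0.131).

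The division of reads among complexes, which library scaling does not touch, also placed the ATP synthase higher in *jac1*, at 6.47 ± 0.223% in UV-C treated *jac1* against 5.68 ± 0.124% in UV-C treated wild type, and at 31.9 ± 3.62% in non-treated *jac1* against 26.4 ± 1.2% in non-treated wild type, without overlap in either. With *rbcL* and *psbA* left out, the ATP synthase shares overlapped between genotypes, at 16.7 ± 0.177% in UV-C treated *jac1* against 15.8 ± 0.710% in UV-C treated wild type, and 47.2 ± 4.35% in non-treated *jac1* against 42.4 ± 1.25% in non-treated wild type. *psbA* had the lower share in UV-C treated *jac1*, 32, 30.0 and 29.4% against 33.6, 36.4 and 34.7% in UV-C treated wild type. *rbcL* had 30.8, 30.6 and 31% in UV-C treated *jac1* against 30.0, 27 and 30.5% in UV-C treated wild type. In non-treated *jac1* it had 10.4, 9.64 and 9.6% against 11.6, 12.2 and 13.7% in non-treated wild type. Within this division of reads *rbcL* was thus higher in *jac1* after UV-C, by a narrow gap (30.6 against 30.5%), and lower without it. A lower share of *psbA* by itself raises the others. As a share of all counts *rbcL* overlapped between genotypes in both comparisons. It was at 0.986 times the wild type in UV-C treated and 0.815 times in non-treated *jac1*. With 3 samples a group an exact permutation test of these shares cannot give a p below 0.1. The epidermal markers *ATML1* and *FDH* were higher in non-treated *jac1* than in non-treated wild type, with log2 FCs of 0.38 and 0.40. *LHCB3* was higher in *jac1* by log2 FCs of 1.32 in UV-C treated and 1.70 in non-treated plants. The other mesophyll markers, *CA1* and *RBCS1A*, were at -0.05 and 0.23 in UV-C treated and at -0.17 and 0.0058 in non-treated plants. In UV-C treated *jac1* against UV-C treated wild type the guard cell markers were at -0.44 (*FAMA*), -0.04 (*KAT1*) and 0.20 (*MYB60*). The phloem marker *SUC2* was at -0.39 there. Summed over *AP3*, *PI* and *AG*, flower markers were at 0.455 to 0.860 CPM in *jac1* and 1.28 to 2.40 CPM in the wild type. The part of these markers in the differences was not tested.

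The response to UV-C did not differ detectably between genotypes for any of the 45 genes. None was called in the interaction of genotype and UV-C (3.88% of all genes were), 1 had an unadjusted p below 0.05 beside 36.9% of all genes, and the lowest adjusted p was 0.135, for *atpE*, whose increase in *jac1* differed from that in the wild type by -0.29 ± 0.14 on the log2 scale. The fitted interaction of *psbZ* is large but rests on 0 reads in non-treated *jac1*.

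**Figure D5:**
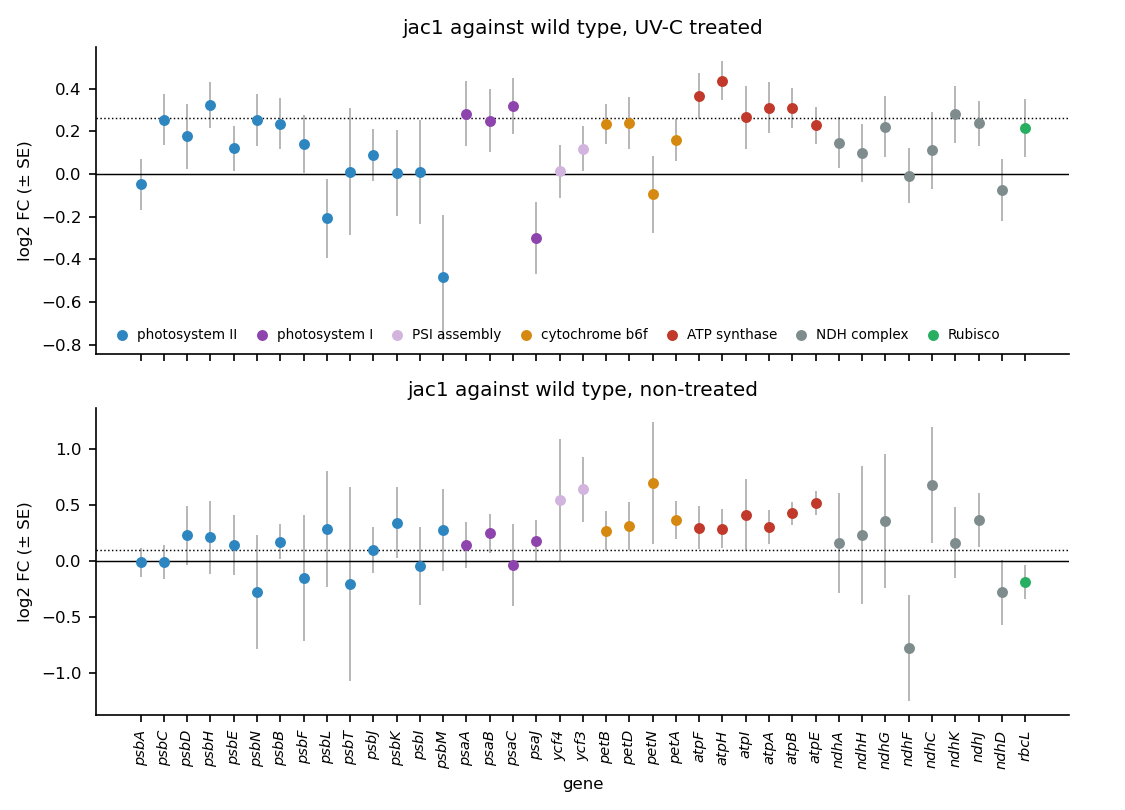
Log2 FC of *jac1* against the wild type, with standard errors, for the 39 genes with more than 3 reads in at least 1 sample of each non-treated group, in UV-C treated (top) and non-treated plants (bottom); the dotted line shows where 0 would lie if libraries were scaled by library size alone. In UV-C treated plants most points lie between 0 and the dotted line at 0.26, the ATP synthase genes are near or above it, and *psbM* and *psaJ* are lowest.

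Nuclear genes for subunits of the same complexes did not share the increase. Of 35 tested, none was called in the wild type after UV-C, and their median log2 FC was 0.21, with a range of -0.70 to 0.99. In *jac1* 1 was called higher and 1 lower, with a median of 0.36. The 12 PSI subunits ranged in the wild type from -0.13 for *PSAG* to 0.99 for *PSAE2*, which was the gene called higher in *jac1* (1.08), and the 10 PSII subunits from -0.18 for *PSBQ1* to 0.66 for *PSBP1*, both of the oxygen-evolving complex. The 4 Rubisco small subunit genes were all below 0, between -0.70 for *RBCS1B*, called lower in *jac1* (-1.27), and -0.27 for *RBCS3B*, while *rbcL*, which encodes their partner, had 8.65. The 3 ATP synthase subunits lay between -0.57 (*ATPC1*) and -0.11 (*ATPG*), the 4 NDH subunits between -0.56 (*NDHM*) and 0.22 (*NDHS*), and the 2 cytochrome b6f subunits were *PETC* at -0.07 and *PETM* at 0.03. The 28 other chloroplast-encoded protein-coding genes, which serve mostly in transcription and translation, were all called higher in both genotypes, with median log2 FCs of 4.93 in *jac1* and 5.16 in the wild type. For some of the 28 a higher level after UV-C was part of how they entered the test. Examples are *rps15* and *rps16*, at 0.0271 and 0.0329 CPM per kb in non-treated wild type. As a share of all counts the 28 genes were 19.2 times as high in UV-C treated as in non-treated wild type, where the photosynthesis genes were 143 times as high.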

How the data were processed

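The authors aligned the first reads of stranded poly-T-selected libraries with STAR 2.5.2b and counted reads per gene with featureCounts (Subread 1.6.2) on the Araport11 annotation, and the deposited values are raw counts. Counting did not use strand, and reads that mapped to several places or lay in several genes were left out. Chloroplast positions in the file match the TAIR10 chloroplast sequence used here, since all 45 genes read in frame to a stop codon. Protein-coding genes that reached 5 reads in 3 or more samples were scaled by TMM and fitted in 1 model of 4 groups over 12 samples with edgeR 4.0.16 (R 4.3.3), quasi-likelihood test, Benjamini-Hochberg adjustment over 20101 genes. A call needed an adjusted p below 0.01 and an absolute log2 FC above 1. Standard errors were the log2 FC over the root of the F value. DESeq2 1.42.0 was an alternative, as were other scalings, filters and samples. The fit was tested on simulated data. Exact permutation tests went through every division of the samples, and Spearman correlations used scipy 1.17.1. Same-numbered non-treated samples of both genotypes deviated together (correlations of 0.14 to 0.41 in 3 of 3 pairs), a pairing seen in the data and not stated in the labels. P-values measure the spread between 3 pooled-rosette samples a group, and counting limits the genes with few reads.

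Genes given with sample values were, in each complex, the most abundant per length in UV-C treated wild type and those with the largest and smallest log2 FC there, with *rbcL*, *psbA*, *ycf3*, *ycf4* and some of the operon ends. For some operons the ratio of the end genes was given by sample, and for the others only its difference. The genes, lists and tests were chosen with earlier results of these data known.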

Additional observations from a re-analysis of the deposited data

How the results depend on the processing

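All 45 genes were called higher after UV-C in both genotypes, and none between genotypes or in the interaction, under every alternative that kept the thresholds. Read counts limit *psbZ*, *psaI*, *petL*, *petG*, *ndhE* and *ndhI*, and to a lesser degree *psbF* and *ndhH*. TMM against library size limits the comparison of UV-C treated *jac1* with UV-C treated wild type. An adjusted p below 0.05 with no limit on the log2 FC gave 5 genes higher in UV-C treated and 2 in non-treated *jac1*. The cause of changed values was not tested, except where samples were left out.

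With library size alone, the median log2 FC after UV-C in *jac1* was 6.54, and that of UV-C treated *jac1* against UV-C treated wild type was -0.12. In that comparison *atpE* was -0.035 and *rbcL* -0.049, against 0.23 and 0.21 with TMM, and *psbA* was 0.0011 under the likelihood ratio test, against -0.05.

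Leaving out 1 sample gave medians after UV-C of 6.76 to 6.97 in *jac1* and 6.54 to 6.87 in the wild type, and medians of *jac1* against the wild type of 0.06 to 0.27 in UV-C treated and 0.03 to 0.26 in non-treated plants. *psbA* in UV-C treated *jac1* against UV-C treated wild type ranged from -0.12 to 0.085. The ratio of shares of *jac1* to the wild type ranged from 0.876 to 1.01 in UV-C treated and 0.966 to 1.09 in non-treated plants. The operons below 0.05, *psaJ* to *petL* counted, numbered 4 to 7. As *psaJ* to *petL* rests on the pseudocount and is given with no test, this range is not a count of valid tests alone. The differences ranged from -0.068 to 0.14 for *atpA* to *atpI* and from -0.46 to 0.0068 for *ndhJ* to *ndhC*. For *psbZ* to *psbD*, which also rests on the pseudocount, they ranged from -0.32 to 0.12.

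Without *rbcL* and *psbA*, 1 complex was lower without overlap after UV-C in both genotypes, against 4 with them. The share differences in percentage points then became 11.8 (*jac1*) and 10.1 (wild type) for PSI, 0.00969 and 0.279 for the PSI assembly genes, and 1.61 and 2.06 for cytochrome b6f. Counted per kb they were 0.211 and 0.822 for cytochrome b6f and 0.116 for the PSI assembly genes in the wild type. With 200 bases downstream, the correlation of the log2 FC in the wild type with the longest run of A was -0.23, with the most A in 20 bases -0.046 and with percent A -0.40.

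Outside the comparison of non-treated plants the replicate numbers of the titles share only a number, since not every same-numbered pair correlated above 0.1. With these numbers as a replicate block, all 45 genes were called in both genotypes, with medians of 6.85 in *jac1* and 6.71 in the wild type, and none between genotypes, and *atpE* in UV-C treated plants had an adjusted p of 0.0556. In non-treated plants, where they pair the samples, this replicate block, and a block fit of the 6 non-treated samples alone that was added after seeing the data, left *atpE* and *atpB* below an adjusted p of 0.05 and none of the 45 genes called. With library-name numbers as a replicate block, the medians were 6.86 and 6.81, and 0.0061 for UV-C treated *jac1* against UV-C treated wild type, and adjusted p were 0.0506 for *atpF*, 0.243 for *psbH* and 0.137 for *atpE* there and 0.0913 for *atpB* in non-treated plants.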
